A study of Mus musculus with 10 samples.

Results

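The complement receptors and regulators described here are 5 genes of the 17658 in the deposited table, taken by name: Cd55, Cr2, Cd59a, Cd93 and C1qbp. All 5 were listed, and 4 of them, all but Cd59a, reached the mean of 1 FPKM over the 10 libraries that was required for a test. RNA sequencing was done on B cells enriched magnetically, by removal of other cells, from spleen and lymph node of C57BL/6 mice aged 10 weeks. The wild-type mice carried Nr4a1+/+ and the others Nr4a1-/-, a knockout of the gene for the orphan nuclear receptor Nur77. Cells were left without agent (1 library of each genotype) or given anti-IgM, an antibody that crosslinks the B cell antigen receptor, at 10 µg/mL for 2 hours (4 libraries per genotype, with the letters A, B, C and D). The series asked which genes induced through the antigen receptor depend on the genotype. Which part of Nr4a1 the knockout allele removes, and whether a letter stands for 1 mouse, are not given in the sources used here, so p-values measure only the spread between these libraries, which may be technical.

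Complement is a cascade of plasma proteins that coats particles with fragments of C3 and can end in a pore in the target membrane. Cells carry membrane regulators that stop the cascade on their own surface, and B cells also carry receptors that read the deposited fragments. On mouse B cells the Cr2 gene gives, by alternative splicing, both complement receptors CR2 and CR1, and CR2 joins CD81 in a coreceptor complex that lowers the threshold for antigen.

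The members fall into 3 kinds by role. Cr2 is the receptor for C3 fragments. Cd55, decay-accelerating factor, takes apart the enzymes that cleave C3, and Cd59a blocks assembly of the membrane pore. Cd93 and C1qbp were both first described as binding C1q: Cd93 is a lectin-like membrane protein that marks immature B cells, endothelium and myeloid cells, while C1qbp resides chiefly in the mitochondrial matrix.

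A pair of these genes lie far apart on chromosome 1 of mouse build GRCm38, the assembly also called mm10: Cd55 at chr1:130439027-130462744 and Cr2 at chr1:195136811-195176716, both on the minus strand. Cd59a lies at chr2:104095801-104115354 on the plus strand, Cd93 at chr2:148436640-148443563 on the minus strand and C1qbp at chr11:70977836-70983026 on the minus strand, by GENCODE M21. The FPKM of a gene covers all its annotated transcripts, which for Cr2 number 12.

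The 250 bases before the start site are shown for Cd55, Cr2 and C1qbp, the members called in a comparison below that have an entry in the promoter table used. They are RefSeq sequences of GRCm38.p6 on the gene's own strand, 5′ to 3′, with matches to the searched motifs in capitals.
Cd55, chr1:130462745-130462994: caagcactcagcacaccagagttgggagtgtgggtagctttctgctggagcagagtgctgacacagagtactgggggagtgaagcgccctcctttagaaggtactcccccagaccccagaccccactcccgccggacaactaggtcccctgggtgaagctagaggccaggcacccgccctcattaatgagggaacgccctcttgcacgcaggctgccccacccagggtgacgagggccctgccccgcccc
Cr2, chr1:195176720-195176969: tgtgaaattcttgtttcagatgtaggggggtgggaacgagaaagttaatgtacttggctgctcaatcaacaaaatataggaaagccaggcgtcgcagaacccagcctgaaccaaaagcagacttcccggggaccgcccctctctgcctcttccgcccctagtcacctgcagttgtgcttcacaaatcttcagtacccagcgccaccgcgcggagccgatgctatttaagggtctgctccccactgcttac
C1qbp, chr11:70983027-70983276: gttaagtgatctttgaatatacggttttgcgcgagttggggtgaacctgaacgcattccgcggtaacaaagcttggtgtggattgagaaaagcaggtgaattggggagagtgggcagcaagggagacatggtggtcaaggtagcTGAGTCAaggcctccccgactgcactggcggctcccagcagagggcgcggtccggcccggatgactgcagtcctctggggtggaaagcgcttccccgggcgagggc

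Each window was searched on both strands for the monomer site of NR4A receptors (AAAGGTCA), the EGR site (GCGTGGGCG), the E-box (CACGTG), the AP-1 site (TGANTCA), the cAMP response site (TGACGTCA) and a kB site (GGGANTTCC). The match found was 1 AP-1 site in C1qbp, from 106 to 100 bases before the start site. Of 32851 promoter windows of this length, 6.75% held an AP-1 match, 1.34% the NR4A site, 0.536% the EGR site, 6.02% the E-box, 1.55% the cAMP site and 1.43% the kB site. The windows of Cd55, Cr2 and Cd59a, the other members matched, held none of these letters.

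The table gives FPKM, fragments counted relative to transcript length and to all mapped fragments of the library, so levels can be set side by side between genes, but the depth of the libraries is unknown. The targeted gene did not separate the labels: Nr4a1 stood at 126 FPKM in both unstimulated libraries and at 808 ± 47.2 (SD, n = 4) in stimulated wild type against 702.1 ± 44.6 (SD, n = 4) where the label was knockout, with overlap, although limma called it lower there (log2 difference -0.20, SE 0.053, adjusted p = 0.0432). B cell markers were high in every library, with Pax5 between 53.2 and 135 FPKM, while 5 of 6 T cell markers and 6 of 7 endothelial markers had a mean under 1 FPKM. The remaining T cell marker, Lck, ran from 17.5 to 66.9 FPKM and rose with anti-IgM (log2 response 1.36). After anti-IgM, Lck was called higher in labelled knockout (log2 difference 0.48, SE 0.033, limma adjusted p = 3.15e-05). Macrophage markers varied between libraries, since Lyz2 ran from 15.8 to 115 FPKM and was highest in the B library of each stimulated genotype. Of 6 tested macrophage markers, limma called 0 between the stimulated genotypes, beside 9.72% of all tested genes. An unadjusted limma p under 0.05 was found for 1 of the 6. Such a count does not show that macrophage content was alike. In these bulk samples fewer cells of a type and less RNA per cell cannot be told apart.

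In the unstimulated wild-type library the order of levels was Cd55 (225 FPKM), C1qbp (81.3 FPKM), Cr2 (41.8 FPKM), Cd93 (12.6 FPKM) and Cd59a (0.18 FPKM). The unstimulated library labelled knockout had the same order. After anti-IgM it became C1qbp, Cr2, Cd55, Cd93 and Cd59a in each of the 8 stimulated libraries. Cd55 thus passed from the most abundant of the members to a place below Cr2, and the ranges of these 2 genes did not overlap within either stimulated genotype.

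**Figure D1:**
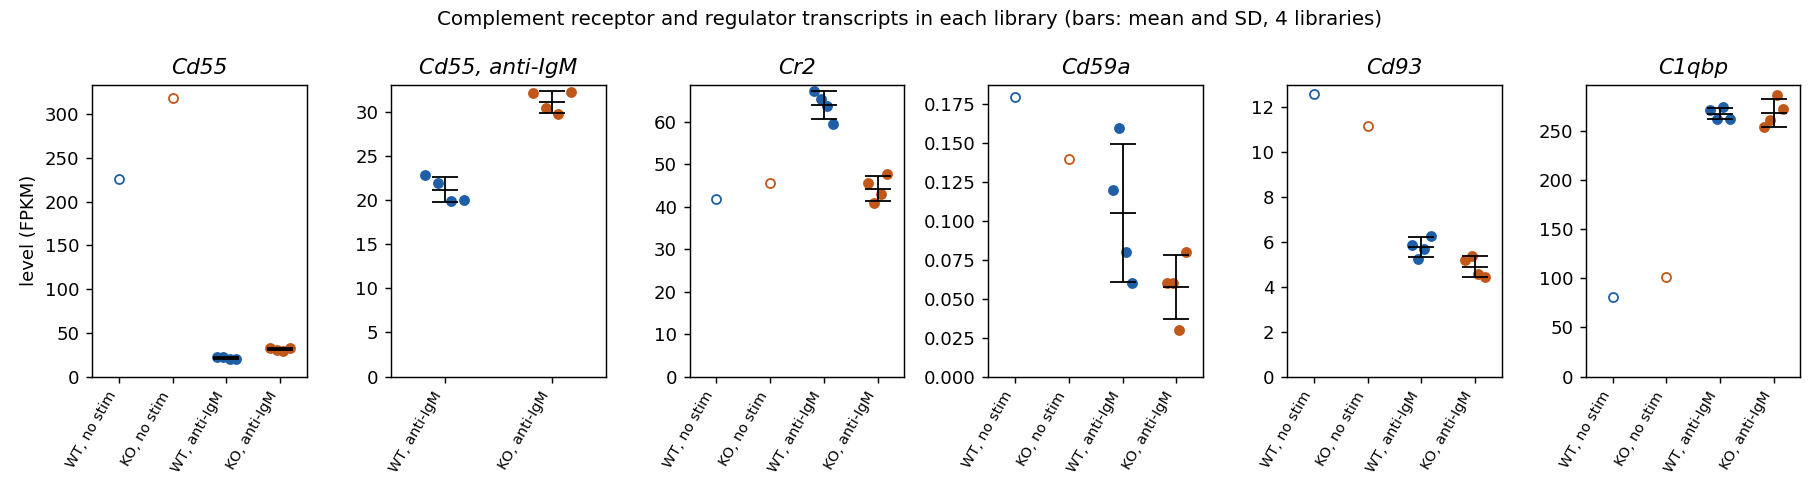
Level of each member in FPKM (linear axis from 0) in every library of 4 groups, wild type (WT, blue) and labelled knockout (KO, orange), unstimulated (open circles, 1 library) or after anti-IgM (filled circles, 4 libraries, with mean and SD). Cd55 is drawn again with its stimulated libraries alone, where wild type spans 19.9 to 22.8 FPKM and labelled knockout 29.7 to 32.2 FPKM, and the 2 groups of Cr2 after anti-IgM are apart as well.

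The response to anti-IgM was tested with both genotypes in 1 fit, 8 libraries against 2, with genotype as a term in limma. The call required an adjusted p (Benjamini-Hochberg) under 0.05 and a change of at least 1 in size on the log2(FPKM + 1) scale, on which changes of low genes are understated. Of the 4 members tested, 3 were called, C1qbp higher and Cd55 and Cd93 lower, where 20.3% of all 10225 tested genes were called (7.94% higher and 12.4% lower). The median response of all tested genes was -0.17, and it lay between -0.031 and 0.035 with each library rescaled to TPM, with median-of-ratios scaling or with quantile normalization, so part of any single response depends on the scale. The calls, 812 higher and 1266 lower, became 1155 and 801 with median-of-ratios scaling and 1102 and 1071 with TPM.

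Cd55 fell the most among the members, and only 5 of the 10225 tested genes had a larger fall. Wild type without agent held 225 FPKM, and its stimulated libraries A to D held 22.8, 21.9, 19.9 and 19.97 FPKM. Labelled knockout held 319 FPKM unstimulated and 32.2, 30.4, 29.7 and 32.2 FPKM after anti-IgM. No stimulated library came near an unstimulated one, and 9.39% of the unstimulated level was left in wild type and 9.77% in labelled knockout. The log2 response over both genotypes was -3.33 (SE 0.056, limma adjusted p = 1.04e-11).

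C1qbp rose in both genotypes. The unstimulated libraries held 81.3 FPKM (wild type) and 101 FPKM (labelled knockout). After anti-IgM the levels of libraries A to D were 272, 263, 274 and 263 FPKM in wild type, and 254, 261, 287 and 272 FPKM in labelled knockout. The stimulated level was 3.29 times the unstimulated level in wild type and 2.66 times in labelled knockout, and the log2 response was 1.55 (SE 0.065, limma adjusted p = 2.39e-09). Among all tested genes 243 rose more.

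Cd93 fell to less than its unstimulated level in every stimulated library. It went from 12.6 FPKM to 5.85, 5.21, 5.68 and 6.27 FPKM in wild-type libraries A to D, and from 11.1 FPKM to 5.19, 5.36, 4.57 and 4.41 FPKM in those labelled knockout. The log2 response was -1.03 (SE 0.079, limma adjusted p = 3.22e-07), close to the size of 1 required for a call. With the other scalings it lay between -0.93 and -0.76, under that size, with limma adjusted p of 6.09e-06 or less.

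Cr2 was not called for stimulation over both genotypes, with a log2 response of 0.28 (SE 0.12, limma adjusted p = 0.0453). This value averages unlike changes. Wild-type libraries went from 41.8 FPKM to 67.4, 65.3, 63.6 and 59.4 FPKM, all above the unstimulated library, while those labelled knockout went from 45.6 FPKM to 45.6, 40.8, 43.0 and 47.6 FPKM, on both sides of theirs. Fitted without the unstimulated library labelled knockout the response was 0.60 (limma adjusted p = 0.000115), and without the unstimulated wild-type library it was -0.046 (limma adjusted p = 0.635).

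Cd59a was at the lower end of detection in all libraries. It stood at 0.18 and 0.14 FPKM in the unstimulated libraries of wild type and labelled knockout. The stimulated libraries held 0.06 to 0.16 FPKM in wild type and 0.03 to 0.08 FPKM in labelled knockout, which overlap. Its log2 values did not differ beyond the spread (two-sided exact permutation p = 0.200, n = 4 each). Summed erythroid markers, whose cells carry CD59, also varied here, at 37.7 and 12.4 FPKM in the unstimulated libraries of wild type and labelled knockout and from 1.97 to 21.1 FPKM after anti-IgM, and 3 of the 4 listed had a mean under 1 FPKM. Their part in the Cd59a values was not tested.

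Wild type and labelled knockout were set against each other after anti-IgM, 4 libraries against 4, with limma and a call at an adjusted p under 0.05. Of the 4 members tested, 2 were called, Cd55 higher and Cr2 lower in the libraries labelled knockout, where 9.72% of all tested genes were called (3.91% higher and 5.81% lower). The split of 400 higher and 594 lower turned with the scale, to 559 and 377 with median-of-ratios scaling and 478 and 438 with quantile normalization. The same 2 members separated the 4 and 4 libraries without overlap, as did 15.5% of all tested genes.

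Cr2 averaged 63.9 ± 3.37 FPKM (SD, n = 4) in stimulated wild type and 44.3 ± 2.99 FPKM (SD, n = 4) in labelled knockout. The lowest wild-type library (59.4 FPKM) lay above the highest labelled knockout (47.6 FPKM), and the mean of the latter group was 69.2% of wild type. The log2 difference was -0.52 (SE 0.053, limma adjusted p = 0.000274; exact permutation p = 0.0286, two-sided, the lowest that 70 labellings allow). In the unstimulated pair, 1 library each, Cr2 differed by 0.12 in the other direction, 41.8 FPKM in wild type and 45.6 FPKM in labelled knockout.

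Cd55 differed in the opposite direction from Cr2, and by a like amount before and after stimulation. It averaged 21.2 ± 1.46 FPKM (SD, n = 4) in stimulated wild type and 31.1 ± 1.26 FPKM (SD, n = 4) in labelled knockout, a ratio of 1.47. The log2 difference was 0.54 (SE 0.0502, limma adjusted p = 0.000178; two-sided exact permutation p = 0.0286, the smallest possible). In the unstimulated pair the ratio was 1.41 and the log2 difference 0.497.

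Neither C1q-binding member passed the genotype test. Cd93 averaged 5.75 ± 0.439 and 4.88 ± 0.463 FPKM (SD, n = 4 each) in stimulated wild type and labelled knockout, with overlap (log2 difference -0.20, SE 0.072, limma adjusted p = 0.131). C1qbp averaged 267.7 ± 5.96 and 269 ± 14 FPKM (SD, n = 4 each), with a log2 difference of 0.0031 (SE 0.037, limma adjusted p = 0.974), whose sign changed when single libraries were left out or with quantile normalization. A p above the threshold does not show that the levels were alike. In the unstimulated pair the log2 difference was -0.16 for Cd93 and 0.31 for C1qbp.

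**Figure D2:**
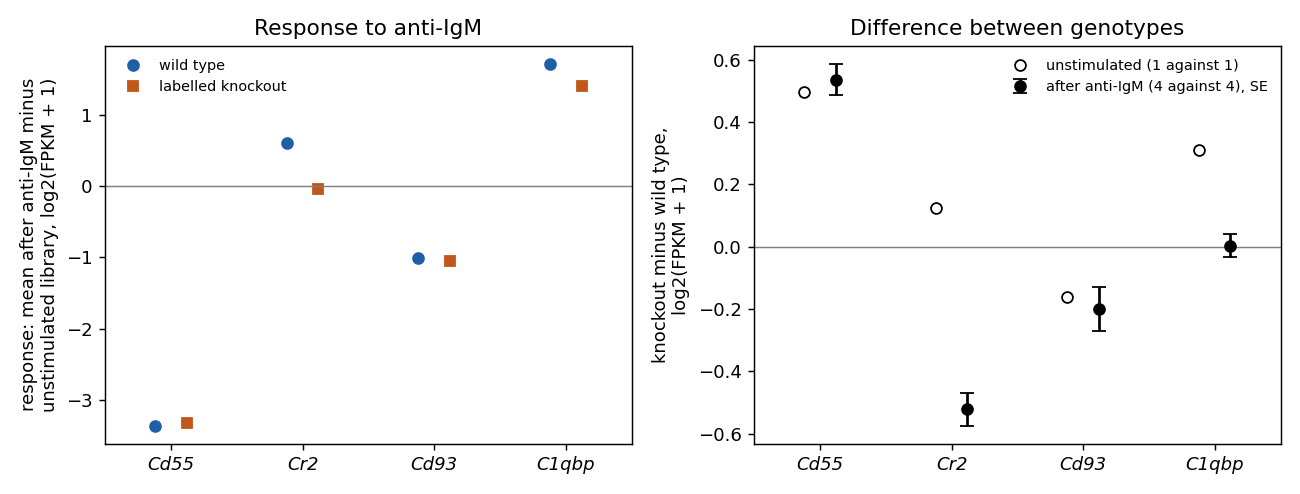
Left, response of the 4 tested members in each genotype, the mean of 4 stimulated libraries minus the 1 unstimulated library on the log2(FPKM + 1) scale (circles wild type, squares labelled knockout). Right, labelled knockout minus wild type on the same scale, unstimulated (open, 1 library each) and after anti-IgM (filled, limma estimate with SE, 4 libraries each): Cd55 lies near 0.5 in both states, whereas Cr2 goes from 0.12 to -0.52.

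Whether the response itself differed between the genotypes was tested with a product term over the 10 libraries. That fit assumes that the 2 unstimulated libraries vary like the stimulated ones, since neither has a replicate. It called 2 of the 4 tested members, Cr2 and C1qbp, both with a negative difference, where 18.9% of all tested genes were called and 14.7% with that sign. A negative difference is a smaller rise for these members but a larger fall for a gene that fell. The median of all genes was -0.096, and the counts leaned on the scale, with 427 higher and 1504 lower on deposited FPKM, 175 and 3455 with TPM, 443 and 849 with median-of-ratios scaling and 874 and 1207 with quantile normalization.

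For Cr2 the response was 0.60 in wild type and -0.046 in labelled knockout, a difference of -0.64 (SE 0.12, limma adjusted p = 0.00690). It lay between -0.82 and -0.57 over 18 alternatives and was called in all of them, with the adjusted p at 0.0292 or less. The difference of Cr2 after stimulation is thus accompanied by a difference in the change from the unstimulated state, on these single unstimulated libraries.

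For C1qbp the response was 1.71 and 1.40 in wild type and labelled knockout, a difference of -0.31 (SE 0.082, limma adjusted p = 0.0306). The stimulated levels overlapped, and the unstimulated library labelled knockout stood 1.24 times as high as the wild-type one. The call was lost in 6 of 18 alternatives, among them median-of-ratios scaling (-0.25, limma adjusted p = 0.164) and leaving out wild-type library A (limma adjusted p = 0.0510) or C (limma adjusted p = 0.0501).

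For Cd55 the responses of -3.35 and -3.32 differed by 0.039 (SE 0.11, limma adjusted p = 0.844). The difference turned to -0.13 after rescaling to TPM and to -0.024 with a pseudocount of 5. The responses of Cd93, -1.01 and -1.05, differed by -0.039 (SE 0.16, limma adjusted p = 0.895), and this sign too turned with the scaling (0.13 with quantile normalization).

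Cd55 and Cd59a have a close relative beside them in the genome, which matters because reads from near-identical stretches must be divided between genes. Cd55b, listed in the table under its older symbol Daf2, lies at chr1:130388537-130423009 next to Cd55. Of the 50-base windows in the Cd55 transcripts of GENCODE M21, 8.0% also occur in Cd55b. Daf2 stood at 2.80 FPKM in unstimulated wild type and 0.19 FPKM in unstimulated labelled knockout.

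After anti-IgM, Daf2 held 1.09, 0.73, 0.48 and 0.55 FPKM in wild-type libraries A to D and 0, 0.04, 0.09 and 0 FPKM in those labelled knockout. The groups did not overlap (two-sided exact permutation p = 0.0286, the smallest possible, n = 4 each), but its mean was under 1 FPKM and it was not among the genes fitted. Daf2 thus stood lower in labelled knockout where Cd55 stood higher, and its level was at most 1.09 FPKM beside at least 19.9 FPKM of Cd55 after stimulation. How RSEM divided the shared stretches was not tested. Within 1 Mb of Cd55, 4 of 10 other tested genes were called between genotypes, beside 9.93% of all tested genes with a place in RefSeq. That count was made after the values were seen. Whether the labelled knockout mice differ from wild type in the sequence of this region was not tested, and the genotype difference of Cd55 carries that limit.

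Cd59b, the neighbour of Cd59a at chr2:104069849-104091187, shares 3.87% of the Cd59a windows and was as low, from 0 to 0.63 FPKM. Cr1l, which encodes Crry, the broadly expressed C3 regulator of mouse cells, lies next to Cr2 at chr1:195097382-195131586 and shares 0 windows with it. Cr1l did not follow Cr2 between genotypes. It stood at 34.0 ± 1.18 FPKM (SD, n = 4) in stimulated wild type and 32.4 ± 1.01 FPKM (SD, n = 4) in labelled knockout (log2 difference -0.065, SE 0.034, limma adjusted p = 0.307).

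Few of the other complement genes reached the level required for a test. Of 54 genes listed beside the members, 43 were matched to a row of the table and 12 were tested. The match of the soluble regulator Cpn2 was to the row of Cyp11b2, another gene, which was not tested. The 12 were 5 receptors and membrane regulators, 2 soluble regulators, 4 components and 1 gene of the lectin pathway. For stimulation 0 of the 12 were called, against 20.3% of all genes, with a median response of -0.26 against -0.17 for all genes. With the size requirement dropped, limma called 2 of the 12 higher and 3 lower, among them Cr1l (log2 response -0.60, adjusted p = 3.19e-07), where that rule called 78.9% of all tested genes (31.2% higher and 47.7% lower).

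Between genotypes 1 of the 12 was called, beside 9.72% of all tested genes. The called gene, Itgb2, the shared beta chain of the integrin receptors for C3 fragments, was lower in labelled knockout. Its stimulated levels were 51.5, 52.5, 51.7 and 51.4 FPKM for wild type A to D, and 41.1, 44.9, 41.2 and 42.3 FPKM for labelled knockout (log2 difference -0.28, SE 0.032, limma adjusted p = 0.000475). The median difference of the 12 was -0.17 against -0.024 for all tested genes. Calr, the chaperone calreticulin that also binds C1q, ran from 247 to 336 FPKM in wild type and from 351 to 362 FPKM in labelled knockout and did not pass (limma adjusted p = 0.0948).

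The C1q chains themselves, products of macrophages, were low, from 2.85 to 9.57 FPKM for C1qa, C1qb and C1qc over all libraries. Beside them, summed macrophage markers ran from 52.6 to 154 FPKM in stimulated wild type and from 33.0 to 114 FPKM in labelled knockout. Their part in the C1q values was not tested.

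**Figure D3:**
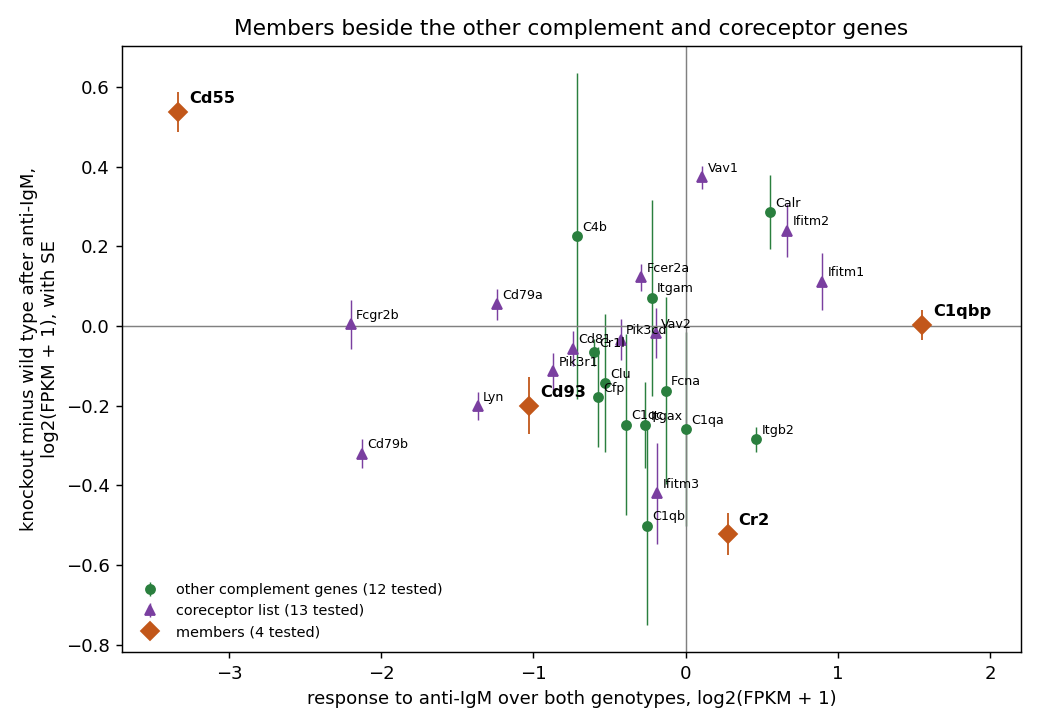
Response to anti-IgM over both genotypes (horizontal) against labelled knockout minus wild type after anti-IgM with its SE (vertical), both on the log2(FPKM + 1) scale, for the 4 tested members (diamonds), 12 other complement genes (circles) and 13 coreceptor genes (triangles). Cd55 lies at the far left and above 0, Cr2 lies at the bottom right, and of the complement genes beside the members Itgb2 is the called one.

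Of 13 genes around the coreceptor and antigen receptor, limma called 4 lower with stimulation and 0 higher, beside 12.4% and 7.94% of all tested genes, with a median response of -0.43. With the size requirement dropped, 9 were lower and 3 higher, where that rule called 47.7% of all tested genes lower and 31.2% higher. Fcgr2b, the inhibitory IgG receptor, fell by 2.2 on the log2 scale (SE 0.069), the antigen receptor chains Cd79b by 2.13 (SE 0.050) and Cd79a by 1.24 (SE 0.052), and the kinase Lyn by 1.37 (SE 0.066), each with a limma adjusted p of 6.63e-09 or less. Cd81, the tetraspanin of the coreceptor, went from 49.8 to 31.4 ± 0.910 FPKM (SD, n = 4) for wild type, and labelled knockout went from 54.4 to 30.2 ± 1.79 FPKM (SD, n = 4).

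Between genotypes 3 of the 13 coreceptor genes were called, beside 9.72% of all tested genes. Vav1, an exchange factor of antigen receptor signalling, was higher in labelled knockout (0.37, SE 0.030, limma adjusted p = 6.22e-05), and Cd79b (-0.32, SE 0.037, limma adjusted p = 0.000540) and Lyn (-0.20, SE 0.036, limma adjusted p = 0.00710) were lower. Cd81 did not pass (-0.056, limma adjusted p = 0.504).

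High Cr2 marks marginal zone B cells, so the markers of these cells are given beside it. Of 7 tested marginal zone markers other than Cr2, 1 was called higher in labelled knockout, S1pr3 (0.52, SE 0.058, limma adjusted p = 0.000475), and 1 lower, Dtx1 (-0.14, SE 0.038, limma adjusted p = 0.0454). Among all tested genes 3.91% were called higher and 5.81% lower. The sum of all 8 listed, with 1 below the level for a test, ran from 146 to 160 FPKM in stimulated wild type and from 144 to 169 FPKM in labelled knockout, which overlap. The follicular marker Fcer2a stood at 229 ± 11.3 and 249 ± 2.28 FPKM (SD, n = 4 each) and did not pass (limma adjusted p = 0.0513). The part of cell composition in the Cr2 difference was not tested beyond these values.

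Cd93 marks immature and transitional B cells. Of the 7 tested markers of these cells, 5 were called between genotypes, 2 higher and 3 lower in labelled knockout, beside 9.72% of all tested genes. Spib (0.34) and Ly6d (0.20) were higher, and Myb (-0.93), Cecr2 (-0.32) and Vpreb3 (-0.27) were lower, with limma adjusted p from 4.22e-05 for Myb to 0.0195 for Vpreb3. Of 7 endothelial markers, from another cell type that carries Cd93, Cdh5, Kdr, Emcn and Tek were at most 0.17 FPKM in any library. The sum of the 7 was carried by Pecam1, which leukocytes share, and went from 52.9 and 55.4 FPKM unstimulated to 5.06 to 6.53 FPKM after anti-IgM. Summed transitional markers went from 1273 and 1098 FPKM to between 585 and 706.4 FPKM, a fall carried by Ly6d (744 and 564 FPKM to between 107 and 137 FPKM). Myb and Spib instead stood higher in every stimulated library than in the unstimulated library of the same genotype. The part of either list in the Cd93 response was not tested. Leaving out both B libraries, the ones highest in Lyz2, an alternative chosen after seeing the data, gave a Cd93 response of -1.03.

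C1qbp was set beside 18 genes of mitochondrial protein synthesis and folding, of which 17 were tested. With stimulation 2 were called higher and 0 lower, beside 7.94% and 12.4% of all tested genes. The 2 were the chaperones Hspd1 (1.45, SE 0.056, limma adjusted p = 1.25e-09) and Hspa9 (1.42, SE 0.040, limma adjusted p = 1.56e-10). The median response of the 17 was 0.54 against -0.17 for all genes. The response of C1qbp was 1.55. Between genotypes 2 of the 17 were called, Clpp (-0.25, SE 0.042, limma adjusted p = 0.00464) and Phb2 (-0.17, SE 0.025, limma adjusted p = 0.00211), both lower in labelled knockout, a share near the 9.72% of all tested genes.

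The genes most like each member over the 10 libraries were found by Pearson correlation of log2(FPKM + 1), as a description of libraries that share the stimulation contrast. For Cd55 they were Zscan26, Add3 and Usp38 (r of 0.997, 0.997 and 0.996). For C1qbp they were Nufip1, Ddx27 and G3bp1 (each 0.999), and for Cd93 Zfp54, Acvr1b and Rnf34 (0.994, 0.993 and 0.991).

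The genes most like Cr2 were Sgk1, Nrip1 and Atmin (r of 0.962, 0.961 and 0.957). Nrip1, a corepressor of nuclear receptors, was at 2.86 FPKM before and 9.39 ± 0.427 FPKM (SD, n = 4) after anti-IgM in wild type, against 2.97 and 2.66 ± 0.0810 FPKM (SD, n = 4) in labelled knockout. Atmin went from 8.93 to 19.1 ± 0.536 FPKM (SD, n = 4) and from 10.4 to 11.1 ± 0.461 FPKM (SD, n = 4). Like Cr2, each of these 3 genes stood higher in the 4 stimulated wild-type libraries than in any library labelled knockout. They were picked for their correlation with Cr2 over these same libraries, so this separation follows largely from the choice. The stimulated genotypes did not overlap for 15.5% of all tested genes. With the genotype means removed, over the 8 stimulated libraries, the nearest genes were others. They were Rpp14, Dimt1 and Kif2a for Cr2 (0.980, 0.980 and 0.971) and Bhlhe41, Wipi2 and Ppp1r3e for Cd55 (0.977, 0.970 and 0.968). These are the highest values picked from the 10225 tested genes over only 8 libraries. How high such values run by chance was not tested.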

How the data were processed

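The members and gene lists were chosen with earlier results of these data known. The deposited table holds FPKM per gene with 2 decimals, made by the authors with RSEM, per the name of the table. STAR 2.4, RSEM 1.2.14 and build mm10 are named in the submitters' processing notes, with no role given. Which annotation and filters were used, and whether strand counted, is not given in the sources used here, and depth is unknown.

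Every column matched the description of 1 sample. Values were transformed as log2(FPKM + 1), and genes whose mean of the 10 libraries reached 1 FPKM, 10225 in all, were fitted with limma 3.58.1 in R 4.3.3 (eBayes with trend, two-sided, Benjamini-Hochberg over all tested genes). Single genes were also compared by an exact permutation test over the 70 labellings of the 8 stimulated libraries. The fits were tested on simulated data. Genes named are the members, their paralogues and neighbours, and the 3 genes most correlated with each member. From the complement, coreceptor, marginal zone, transitional and mitochondrial lists, those called between genotypes or with the largest called responses are named. Genes with a marker or partner role were named for context after their values were seen. In the other marker lists, limma called 1 of 1 tested T cell marker, Lck (0.48), higher in stimulated labelled knockout. Also higher there were 2 of 5 plasma cell markers, Prdm1 (0.44) and Slamf7 (0.31), and 1 of 4 B1 markers, Cd5 (0.24). Called lower were 1 of 3 follicular markers, Ccr7 (-0.21), 1 of 3 platelet markers, Ppbp (-0.53), and 1 of 5 B cell markers, Cd79b. The macrophage, neutrophil, endothelial, stromal and erythroid lists held 0 calls. Among all tested genes 3.91% were called higher and 5.81% lower. Alternatives covered pseudocount, filter, scaling, the eBayes trend, the letter as a block and each library left out. A gene of the coreceptor and B cell lists is not reported here and was left out of their counts. Gene places came from GENCODE M21 and promoters from RefSeq GRCm38.p6.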

Additional observations from a re-analysis of the deposited data

Results flagged for a closer look

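The test of the difference in response between genotypes set 2 of the 4 tested members apart. It called 18.9% of all tested genes, and 14.7% with a negative difference. The response of Cr2 was smaller in the libraries labelled knockout (-0.64 on the log2 scale), as was that of C1qbp (-0.31). Both rest on 1 unstimulated library per genotype.

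Among 30 groups of 4 stimulated libraries (the members and the called complement, coreceptor and mitochondrial genes named, each genotype on its own), 1 held a library far from the other 3: Clpp stood at 29.3 FPKM in library C labelled knockout, where the others held 26.5 to 26.8 FPKM. Chance sets apart about 1 in 20 such groups, or 1.5 here.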

How the results depend on the processing

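The genotype calls of Cd55 (0.47 to 0.58) and Cr2 (-0.56 to -0.39) and the absence of a call for Cd93 held in 19 of 19 alternatives each, and the stimulation calls of Cd55 and C1qbp in 20 of 20. The genotype difference of C1qbp became -0.025 with quantile normalization and ran from -0.028 to 0.029 with 1 library left out. The Cr2 response ran from -0.046 to 0.60 with 1 library left out. The Cd93 response fell under the size of 1 with a pseudocount of 5 (-0.71), TPM (-0.93), median-of-ratios scaling (-0.81) and quantile normalization (-0.76). The difference in response changed sign for Cd55 with a pseudocount of 5 (-0.024) and TPM (-0.13), and for Cd93 with a pseudocount of 5 (0.00054), median-of-ratios scaling (0.012) and quantile normalization (0.13). The C1qbp difference in response lost its call without a filter (-0.31, adjusted p = 0.0542), with median-of-ratios scaling (-0.25), without the eBayes trend (-0.31, adjusted p = 0.0610) and without both B libraries (-0.30, adjusted p = 0.0627), and ran from -0.34 to -0.28 with 1 library left out.

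Counts over all genes moved more. Between genotypes (400 higher, 594 lower) they were 559 and 377 with median-of-ratios scaling, 478 and 438 with quantile normalization, 363 and 371 with all 10 libraries in the fit and 266 and 394 without both B libraries. For stimulation (812 higher, 1266 lower) they were 534 and 598 with a pseudocount of 5, 753 and 824 with the minimum mean raised to 5 FPKM, 1102 and 1071 with TPM, 1155 and 801 with median-of-ratios scaling and 965 and 921 with quantile normalization. For the difference in response (427 higher, 1504 lower) they were 834 and 1575 without a filter, 175 and 3455 with TPM, 443 and 849 with median-of-ratios scaling and 874 and 1207 with quantile normalization. The summed FPKM, which TPM makes equal, was 674961 and 595500 in the unstimulated libraries of wild type and labelled knockout. After anti-IgM the sums lay between 557214 and 571784. The cause of the changes in counts was not tested.

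Same-lettered stimulated libraries of the 2 genotypes did not pair in their deviations, with correlations of -0.021, 0.045, 0.0075 and -0.12 for A to D. These values cannot show whether the unstimulated and stimulated libraries of 1 letter share a source, since only stimulated libraries were compared. Single genes could still go by letter: Lyz2 was highest in library B of stimulated wild type (115 FPKM) and labelled knockout (82.6 FPKM). With the letter as a replicate block, the Cd93 response was -0.98, just under the size of 1, and the genes called with a negative difference in response numbered 950. No other call of a member changed under the block. FPKM carry no counts, so the sampling error of Cd59a, Cd59b and Daf2 is unknown.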

Other observations

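The surroundings of the chromosome 1 members were read after their values were seen. Within 1 Mb on each side of Cd55, 4 of 10 other tested genes were called between the stimulated genotypes, where 9.93% of the 9768 tested genes with a place in RefSeq were called. Faim3, the Fc receptor for IgM, averaged 470 ± 3.11 and 548 ± 11.8 FPKM (SD, n = 4 each) in wild type and labelled knockout (log2 difference 0.22, limma adjusted p = 0.000219). Il10, an anti-inflammatory cytokine, stood at 3.15 ± 0.981 and 5.74 ± 1.35 FPKM (SD, n = 4 each; 0.71, limma adjusted p = 0.0369). Rassf5, an adaptor for integrin activation, was higher as well (0.32, limma adjusted p = 0.00172), and the kinase gene Mapkapk2 was lower (-0.18, limma adjusted p = 0.00123). Around Cr2, 0 of 2 tested neighbours were called by limma, Cr1l among them, and 0 had an unadjusted p under 0.05.

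On chromosome 1 as a whole, 89 of 555 tested genes (16.0%) were called, 46 higher and 43 lower in labelled knockout. The share on the other chromosomes lay between 5.46% on chromosome 8 and 14.4% on chromosome 15, which holds Nr4a1. Calls with a log2 difference of at least 0.5 in size, Cd55 and Cr2 among them, made up 19 of the 555 genes (3.42%) on chromosome 1 and 1.35% of all placed genes.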
